A study of Mus musculus with 8 samples.

Results

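Keratins of epidermis and hair follicle were followed gene by gene in RNA recovered with tagged ribosomes from mouse skin. Members were all protein-coding genes whose symbol is Krt and a number, with an optional letter, without the simple-epithelial keratins Krt8, Krt18 and Krt19 and without the keratin-associated proteins. This gave 50 of the 53700 genes in the count table, 26 on chromosome 11 (type I keratins) and 24 on chromosome 15 (type II keratins). By known site of expression they comprised 3 basal, 7 suprabasal and 4 wound keratins, 7 of the inner root sheath, 2 of the companion layer and upper follicle, 9 type I and 6 type II keratins of the hair shaft, and 12 others.

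All mice carried AdipoqCreER, a tamoxifen-dependent recombinase driven from the adiponectin gene, and R26-NuTRAP, a reporter that puts GFP on ribosomes of recombined cells, and all received tamoxifen. The groups were uninjured skin (n = 3) and skin 3 days (n = 2) and 7 days (n = 3) after wounding, as the titles' abbreviation was read. The age was given as 7 to 9 weeks in every group. The wounds, made in the resting phase of the hair cycle after shaving and chemical depilation, were 4 full-thickness excisions with a 5 mm punch. The labels name the cell type as adipocyte, and Adipoq, the gene of the adipocyte hormone adiponectin, lay between 1803 and 5404 CPM (normalised counts per 1000000) in all 8 libraries. It was lowest in day 7 replicate 1, as was the sum of 10 adipocyte genes (63150 CPM there, 79270 to 140600 in the others). Keratins, which are epithelial genes, were present beside it in every library. Nothing in the labels says that the libraries of a group came from separate animals, so p-values measure the spread between these libraries, which may be technical.

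Keratins are the intermediate filament proteins of epithelial cells, and each filament is built from a type I and a type II chain in pairs. In skin, Krt5 and Krt14 pair in the dividing basal layer, Krt1 and Krt10 replace them as cells move up and differentiate, and Krt6a, Krt6b, Krt16 and Krt17 are switched on at wound edges and are also made in the hair follicle. Growing follicles make a further set, with Krt25, Krt27, Krt28, Krt71 and Krt73 in the inner root sheath that moulds the hair and Krt35 and its relatives in the hair shaft.

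The values below turned on 2 sets of keratins, the inner root sheath set and Krt7, a type II keratin of simple and glandular epithelia. The 150 bases before the annotated start of 5 of them are shown because their values moved in 2 different patterns across the libraries. They are from RefSeq on GRCm38.p6, read 5′ to 3′ on the gene's strand. Capitals mark the motifs TATAAA (the core of a TATA box) and GGGCGG (the core of a GC box, also in its reverse complement). The regions are chr11:99322952-99323101 (minus strand) for Krt25, chr11:99374904-99375053 (minus) for Krt28, chr15:101743098-101743247 (minus) for Krt71, chr15:101802361-101802510 (minus) for Krt73 and chr15:101412253-101412402 (plus) for Krt7.
Krt25: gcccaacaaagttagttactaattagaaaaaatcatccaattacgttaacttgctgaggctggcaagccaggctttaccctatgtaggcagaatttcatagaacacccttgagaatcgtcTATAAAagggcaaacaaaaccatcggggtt
Krt28: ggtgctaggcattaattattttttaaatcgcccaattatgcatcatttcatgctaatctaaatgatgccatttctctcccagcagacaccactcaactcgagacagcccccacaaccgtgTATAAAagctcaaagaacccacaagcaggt
Krt71: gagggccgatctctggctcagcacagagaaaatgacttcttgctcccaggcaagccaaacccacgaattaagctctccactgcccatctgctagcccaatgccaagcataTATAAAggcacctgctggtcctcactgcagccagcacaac
Krt73: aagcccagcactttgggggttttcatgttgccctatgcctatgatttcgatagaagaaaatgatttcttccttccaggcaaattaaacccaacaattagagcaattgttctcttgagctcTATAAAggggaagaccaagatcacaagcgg
Krt7: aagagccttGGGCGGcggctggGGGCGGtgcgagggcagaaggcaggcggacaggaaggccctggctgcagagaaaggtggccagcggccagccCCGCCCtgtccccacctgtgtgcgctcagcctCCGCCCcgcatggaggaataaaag

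The 4 inner root sheath promoters shown each held a single TATAAA, which began 30 bases before the start in Krt25, Krt28 and Krt73 and 40 bases before it in Krt71. Of the other sheath keratins, Krt27 had its match 15 bases before the start, Krt26 had 2 matches, and Krt72 had 1 on the opposite strand, 203 bases before the start. The Krt7 window held no TATAAA and 4 matches of GGGCGG. Motifs were searched on both strands over 300 bases, from 250 before to 50 after the start, for the 34 members matched in the promoter table (35 promoters). TATAAA was in 18 of the 35 keratin promoters (51.4%) and in 13.6% of all 32851 promoters of that length. GGGCGG was in 2 keratin promoters (5.71%), those of Krt7 and Krt75, against 35.7% of all, and CTTTGA, the core recognised by LEF and TCF factors, was in 9 (25.7%) against 16.0%. The GC content of the 300 bases was 66.3% in Krt7, 42.3% in Krt25 and 41.7% in Krt28, beside a median of 52.7% over all promoters. A match describes the letters in the window and nothing more.

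Libraries held 5308959 to 17751689 counts, and 3 counts, taken here as the detection floor, were worth 0.184 to 0.617 CPM after TMM normalisation. Intervals and floors of this kind cover counting error only. Keratin members took 0.223%, 0.277% and 0.174% of the counts in uninjured replicates 1 to 3, 0.148% and 0.549% at day 3 and 1.08%, 0.274% and 0.193% at day 7. Day 7 replicate 1 and day 3 replicate 2 thus stood above the other 6 libraries. In addition, 31 of the 50 members had their highest value in day 7 replicate 1 and 11 in day 3 replicate 2. Of the 31, 16 stayed below 10 CPM in every library. How many of all genes were highest in these libraries was not counted, here or for the lists below. Each group's columns carried their own leading number in the count table, so anything that number marks cannot be told apart from the group.

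Of the 50 members, 31 passed the expression filter and were tested, and 19 did not. From uninjured skin to day 7, 1 of the 31 rose (Krt7) and none fell, by edgeR's quasi-likelihood test at an adjusted p of 0.05. Over all 18656 genes tested, 7.77% passed, with 5.89% higher and 1.89% lower. Of the tested members, 26 had positive and 5 negative log2 fold changes, with a median of 1.09 against 0.04 over all genes. Members near the floor outside day 7, among them Krt28, Krt35, Krt71 and Krt83, passed the filter through day 7 libraries. That selection favours positive values in this contrast, so the split, the median and the counts that follow are descriptions and no test. An unadjusted edgeR p under 0.05 was found for 8 of the 31 members and for 5000 of the 18656 genes. Day 7 libraries lay wholly above the uninjured ones for 7 of the 31 tested members (Krt4, Krt7, Krt13, Krt25, Krt28, Krt35 and Krt71), beside 30.2% of all tested genes whose groups did not overlap in either direction. The count of called keratins moved with the fit: it was 5 without robust estimation of the spread (Krt7, Krt25, Krt28, Krt35 and Krt71), 5 with DESeq2 and 0 with upper-quartile scaling. At day 3 against uninjured no member passed (2 with DESeq2), where 0.0% of all genes passed. The unadjusted p was under 0.05 for 5 members and for 2436 of the 18656 genes. At day 7 against day 3 none passed either (2 with DESeq2), where 0.123% of all genes passed. Here the unadjusted p was under 0.05 for 9 members and for 2044 of the 18656 genes.

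**Figure D1:**
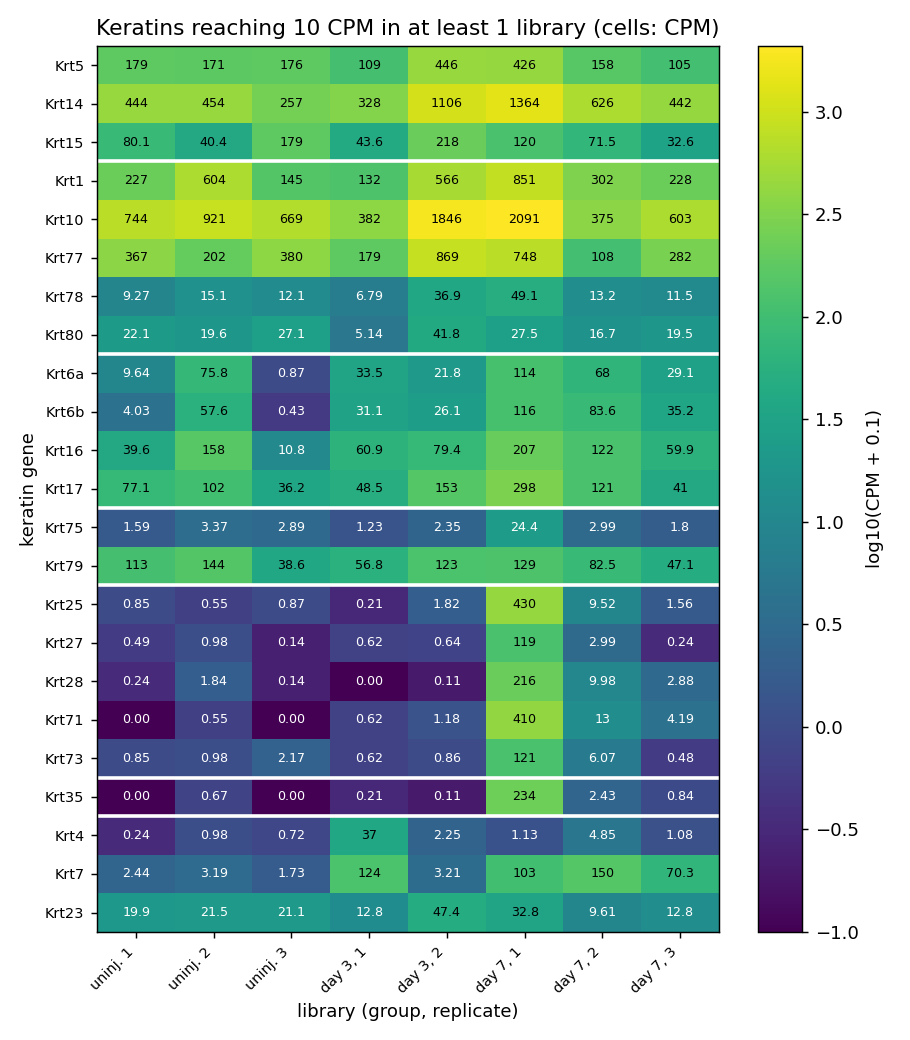
CPM of the 23 keratins that reached 10 CPM in at least 1 library (rows, in blocks separated by white lines: basal, suprabasal, wound, companion layer and upper follicle, inner root sheath, hair shaft, others) in each of the 8 libraries (columns), coloured by log10(CPM + 0.1). The inner root sheath block and Krt35 are bright in day 7 replicate 1, and Krt7 is bright in day 3 replicate 1 and all 3 day 7 libraries.

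Basal keratins were present in every library and did not separate the groups. Krt14, the type I chain of the basal layer, was at 444, 454 and 257 CPM in uninjured skin, 328 and 1106 at day 3, and 1364, 626 and 442 at day 7. The highest values were those of day 3 replicate 2 and day 7 replicate 1, and the lowest day 7 library lay among the uninjured ones. The mean was 385 ± 111 CPM (SD, n = 3) in uninjured skin and 810.3 ± 488 (SD, n = 3) at day 7, and the log2 fold change of 1.07 ± 0.51 (SE) had an edgeR adjusted p of 0.201. Krt5, its type II partner, was nearly level in uninjured skin at 179, 171 and 176 CPM, then 109 and 446 at day 3 and 426, 158 and 105 at day 7. The wounded libraries thus fell on both sides of the uninjured ones (log2 fold change at day 7 of 0.39 ± 0.57, edgeR adjusted p 0.687), and without day 7 replicate 1 it was -0.42. Krt15, known from the basal layer and the bulge where follicle stem cells reside, was at 80.1, 40.4 and 179 CPM in uninjured skin, 43.6 and 218 at day 3 and 120, 71.5 and 32.6 at day 7. Its log2 fold change at day 7 was -0.42 ± 0.73 (SE; edgeR adjusted p 0.745), and 0.31 without uninjured replicate 3.

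Suprabasal keratins did not separate the groups either. Krt10 was at 744, 921 and 669 CPM in uninjured skin, 382 and 1846 at day 3 and 2091, 375 and 603 at day 7. Its 2 highest values were again in day 3 replicate 2 and day 7 replicate 1, and 2 of the 3 day 7 libraries lay below all uninjured ones (log2 fold change 0.40 ± 0.68, edgeR adjusted p 0.737; -0.67 without day 7 replicate 1). Krt1, which pairs with Krt10, was at 227, 604 and 145 CPM in uninjured skin, 132 and 566 at day 3 and 851, 302 and 228 at day 7, so that uninjured replicate 2 was second to day 7 replicate 1. Krt77, another suprabasal type II keratin, was at 367, 203 and 381, then 179 and 869, then 749, 108 and 282 CPM. Neither passed (edgeR adjusted p 0.691 for Krt1 and 0.844 for Krt77), and without day 7 replicate 1 both log2 fold changes at day 7 were below 0 (-0.30 and -0.71). Krt78 and Krt80, keratins of differentiating epidermis, ranged from 6.79 to 49.1 and from 5.14 to 41.8 CPM, each lowest in day 3 replicate 1. Krt2 and Krt9, the latter a keratin of palm and sole, did not exceed 1.71 and 0.411 CPM.

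Within libraries some of these keratins kept a nearly fixed ratio at the deposited gene lengths. Per kilobase of that length, the level of Krt10 was 1.68 to 2.21 times the sum of Krt1 and Krt77 in the 8 libraries. Over the same libraries the ratio of Krt1 to Krt77 ran from 0.254 to 1.98, with the highest values in uninjured replicate 2 (1.98) and day 7 replicate 2 (1.85). At the deposited lengths the type I chain kept step with the summed type II chains. The share of each type II chain differed between libraries. The level of Krt14 per kilobase was 3.1, 3.31 and 1.82 times that of Krt5 in uninjured skin, 3.76 and 3.1 times at day 3 and 4.0, 4.94 and 5.24 times at day 7. Day 7 libraries lay above all 5 others in this ratio, which was noticed after the values were seen and has no test here. Krt10 per kilobase stood at 1.4, 1.69 and 2.17 times Krt14 in uninjured skin, at 0.968 and 1.39 at day 3 and at 1.28, 0.498 and 1.14 at day 7. In mean level per kilobase in uninjured skin the order was Krt10 (368 RPKM), Krt14 (219), Krt77 (108), Krt5 (79.8), Krt1 (73.7, at its deposited length), Krt15 (56.6), Krt17 (46.4) and Krt16 (44.3). The uninjured libraries of Krt10, Krt14 and Krt77 did not overlap between neighbours in that order, and from Krt77 downwards those of every pair of neighbours did.

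**Figure D2:**
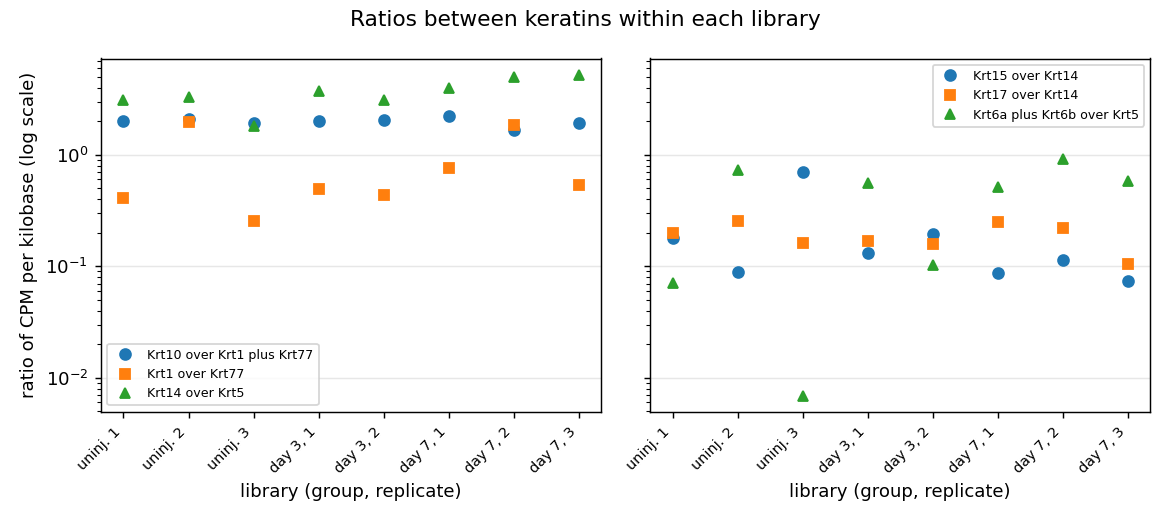
Ratios of CPM per kilobase of deposited gene length between keratins (log axis) in each of the 8 libraries, 1 point per library. Krt10 over the sum of Krt1 and Krt77 stays between 1.68 and 2.21, while Krt1 over Krt77 spans 0.254 to 1.98 and Krt6a plus Krt6b over Krt5 spans 0.0069 to 0.909.

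Of the epidermal keratins that reached 10 CPM, the wound keratins Krt6a, Krt6b and Krt16 varied most between uninjured libraries. Krt6a was at 9.64, 75.8 and 0.867 CPM in uninjured skin, 33.5 and 21.8 at day 3 and 114, 68.0 and 29.1 at day 7. Krt6b was at 4.03, 57.6 and 0.433, then 31.1 and 26.1, then 116, 83.6 and 35.2 CPM. Uninjured replicate 2 lay within the day 7 range for both, whereas the other 2 uninjured libraries were below every wounded one. The highest uninjured value was 87.4 times the lowest for Krt6a and 133 times for Krt6b, against 1.04 times for Krt5 and 1.77 times for Krt14. At day 7 the log2 fold changes were 1.26 ± 1.22 (SE) for Krt6a and 1.88 ± 1.30 for Krt6b, with edgeR adjusted p of 0.539 and 0.387. Without uninjured replicate 2 they were 3.71 (edgeR adjusted p 0.0416) and 5.08 (0.0135). Of the 50-base windows of these transcripts, 49.5% for Krt6a and 50.1% for Krt6b also occur in other genes, mostly in each other, so the split of counts between them is uncertain.

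Krt16, the type I partner of Krt6, was at 39.6, 158 and 10.8 CPM in uninjured skin, 60.9 and 79.4 at day 3 and 207, 122 and 59.9 at day 7, with uninjured replicate 2 again high (log2 fold change at day 7 of 0.89 ± 0.84, edgeR adjusted p 0.522; 2.36 without uninjured replicate 2, 0.39 without uninjured replicate 3 and 0.38 without day 7 replicate 1). Part of the Krt16 transcript is shared as well (37.6% of its windows, 25.2% with Gm11597). Krt17, made in stressed epidermis and in the follicle, was at 77.1, 102.5 and 36.3, then 48.5 and 153, then 297.5, 121 and 41.0 CPM (1.09 ± 0.73, edgeR adjusted p 0.364; 0.16 without day 7 replicate 1). Per kilobase, Krt17 stood at 0.105 to 0.256 times Krt14 over the 8 libraries. The sum of Krt6a and Krt6b per kilobase, set against Krt5, was 0.0711, 0.733 and 0.0069 in uninjured skin, 0.559 and 0.102 at day 3 and 0.511, 0.909 and 0.58 at day 7. All 3 day 7 libraries were above 0.5 in this ratio, as were uninjured replicate 2 and day 3 replicate 1. Uninjured replicate 2 was also high in genes of the outermost epidermis: Flg, the gene of filaggrin, was at 73.2, 430.0 and 5.34 CPM in the uninjured libraries. Whether the same tissue lies behind both was not tested.

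**Figure D3:**
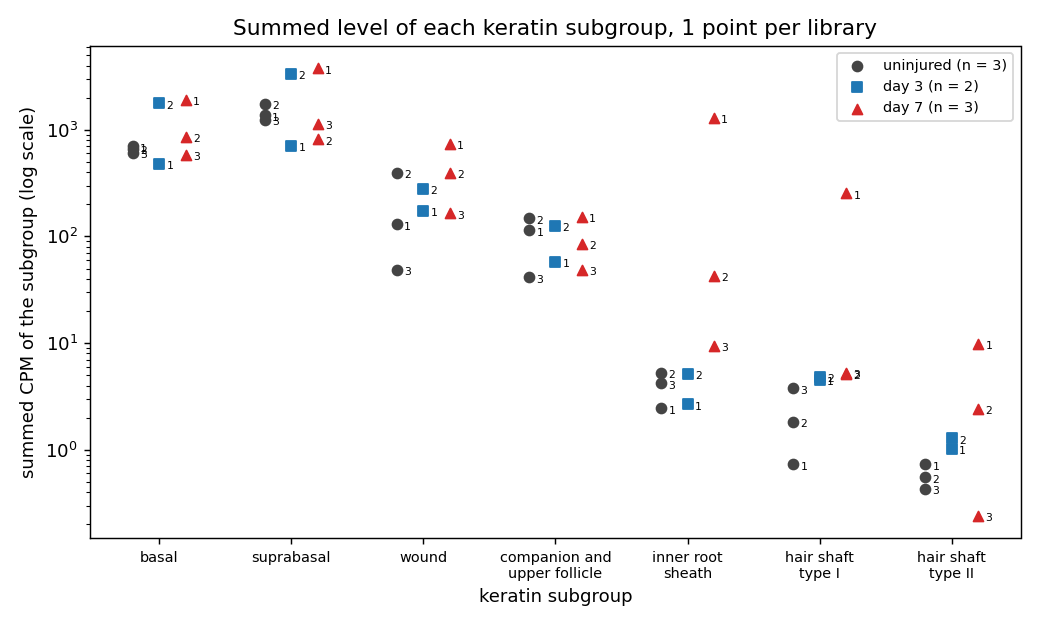
Summed CPM of each keratin subgroup (log axis), 1 point per library with its replicate number, for uninjured (n = 3), day 3 (n = 2) and day 7 (n = 3). Basal and suprabasal sums overlap between the groups with day 3 replicate 2 and day 7 replicate 1 on top, and the inner root sheath sum is 1300 CPM in day 7 replicate 1, 42.6 in replicate 2 and 9.46 in replicate 3, all above the uninjured maximum of 5.27.

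Inner root sheath keratins were close to the detection floor in uninjured and day 3 libraries and far above it in 1 day 7 library. Krt25 was at 0.854, 0.551 and 0.867 CPM in uninjured skin, 0.206 and 1.82 at day 3 and 430, 9.52 and 1.56 at day 7. Krt71, a type II chain of the same sheath, was at 0, 0.551 and 0 in uninjured skin, 0.617 and 1.18 at day 3 and 410, 13.0 and 4.19 at day 7. Krt28 was at 0.244, 1.84 and 0.144, then 0 and 0.107, then 215.5, 9.98 and 2.88 CPM. In all 3 genes the day 7 libraries lay above the uninjured ones in the same order, with replicate 1 above replicate 2 by more than the whole uninjured spread and replicate 3 lowest.

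Krt73 and Krt27 reached 121 and 119 CPM in day 7 replicate 1 and 6.07 and 2.99 in replicate 2. In replicate 3 they were at 0.479 and 0.24 CPM, within or below the uninjured range. The log2 fold changes at day 7 were 8.99 ± 2.34 (SE) for Krt71, 7.64 ± 2.32 for Krt25, 6.36 ± 1.89 for Krt28, 6.02 ± 2.10 for Krt27 and 5.04 ± 1.78 for Krt73. None passed, with edgeR adjusted p from 0.0677 for Krt71 to 0.13 for Krt73, and the size of each was set largely by replicate 1. Without that library the value was 5.05 for Krt71 (edgeR adjusted p 0.0333), 2.88 for Krt25 (0.123), 2.93 for Krt28 (0.135) and 1.32 for Krt73 (0.499). Without replicate 3 of day 7, Krt25, Krt27, Krt28, Krt71 and Krt73 all passed. The remaining sheath keratins, Krt26 and Krt72, peaked in the same library at 2.94 and 1.47 CPM.

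Per kilobase, the type I chains Krt25, Krt27 and Krt28 together stood at 1.75 and 1.47 times the type II chains Krt71 and Krt73 together in day 7 replicates 1 and 2, where the sheath keratins had 11484 and 456 counts. In the other 6 libraries, with 13 to 86 counts, the ratio ran from 0.618 to 2.9. Little of these transcripts is shared with other genes (10.9% of windows for Krt25 and 11.1% for Krt27, mostly with each other).

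Of the hair shaft keratins read, 1 was abundant. Krt85, a type II keratin of the shaft, was not among those read, so its level is not known here. Krt35, an early keratin of the hair matrix and cortex, was at 0, 0.674 and 0 CPM in uninjured skin, 0.206 and 0.107 at day 3 and 234, 2.43 and 0.839 at day 7 (log2 fold change 7.88 ± 2.56, edgeR adjusted p 0.112). The other 14 shaft keratins read did not exceed 5.21 CPM (Krt87), and 11 of them were highest in day 7 replicate 1. Krt31 and Krt34, keratins of the cortex, had no count in any uninjured or day 3 library and were each at 2.94 CPM in that library. The companion layer keratin Krt75 was at 1.59, 3.37 and 2.89 CPM in uninjured skin, 1.23 and 2.35 at day 3 and 24.5, 2.99 and 1.80 at day 7. Its log2 fold change of 1.88 ± 0.86 (SE; edgeR adjusted p 0.191) was -0.14 without day 7 replicate 1. Krt79, a keratin of the upper follicle and its opening, did not follow the sheath: it was at 113, 144 and 38.6 CPM in uninjured skin, 56.8 and 123 at day 3 and 129, 82.5 and 47.1 at day 7.

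Regulators and structural genes of the hair follicle were read from a list of 16, of which 12 were tested. The list was chosen with earlier results of these data known. Of the 12, 6 rose at day 7 by edgeR's test and none fell, where 5.89% of all genes rose. The median log2 fold change was 3.69 against 0.04 over all genes. Genes near the floor outside day 7, such as S100a3 and Lef1, passed the filter through day 7 libraries and had little room to fall. The count and the median are thus partly set by that selection. Of the 16, 15 were highest in day 7 replicate 1, with no count over all genes to set beside this. Leaving out single libraries of these groups gave 2 of 10 without day 7 replicate 1 (median 2.57), 4 of 11 without replicate 2 and 10 of 11 without replicate 3, and 2, 3 and 2 of 12 without uninjured replicates 1 to 3. Those that rose were Sox9 (3.73, edgeR adjusted p 0.00412), Gata3, S100a3, Msx1, Msx2 and Dlx3. Sox9 was at 2.32, 3.49 and 2.02 CPM in uninjured skin, 14.2 and 3.74 at day 3 and 46.8, 41.0 and 19.3 at day 7. It was thus raised in day 3 replicate 1 too, as was Msx2, at 4.11 CPM there against at most 0.674 in uninjured skin. In that library S100a3 was at 0 and Msx1 at 1.65 CPM. Gata3, a transcription factor of the inner root sheath that is also made in luminal epithelium, was at 9.64, 8.02 and 10.7 CPM in uninjured skin, 65.6 and 26.1 at day 3 and 205, 91.5 and 59.5 at day 7. Dlx3, a homeobox factor of the hair matrix, was at 1.95, 2.27 and 1.16, then 0.411 and 1.60, then 51.1, 9.80 and 3.83 CPM, the same order of day 7 libraries as the sheath keratins.

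Tchh, the gene of trichohyalin, a cross-linked protein of the inner root sheath, was at 235, 5.13 and 1.92 CPM in day 7 replicates 1 to 3, against 0.122 to 1.30 in uninjured skin (edgeR adjusted p 0.107). Hoxc13 and Lef1, a homeobox and a Wnt factor of the hair matrix, were at 16.8 and 22.9 CPM in day 7 replicate 1 and at most 2.24 in any other library. Pigment cell genes were high there too: Pmel was at 55.0 CPM and Mlana at 16.9 in that library, against 0 to 4.47 and 0 to 2.99 in the other 7. Over the whole list of 8 melanocyte and Schwann cell genes, 1 of the 7 tested rose at day 7 (Sox10, edgeR adjusted p 0.0237), and 6 were highest in day 7 replicate 1. Sox10 itself was at 0.429 to 0.722 CPM in uninjured skin, 11.9 and 0.535 at day 3 and 12.8, 14.5 and 5.27 at day 7, and so was high in the 4 libraries in which Krt7 was high. The summed level of the list was 221 to 498 CPM in uninjured skin, 770 and 527 at day 3 and 1108, 301 and 460.0 at day 7, most of it from Dct, a pigment enzyme gene at 212 CPM or more in every library. The keratin-associated proteins, which are added late to the hair shaft, stayed low, with 165 counts over 57 genes in day 7 replicate 1 and 2 to 63 in the other libraries. In bulk RNA, more cells of a type and more RNA per cell cannot be told apart, and the part of follicle stage or of the piece of skin taken was not tested.

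**Figure D4:**
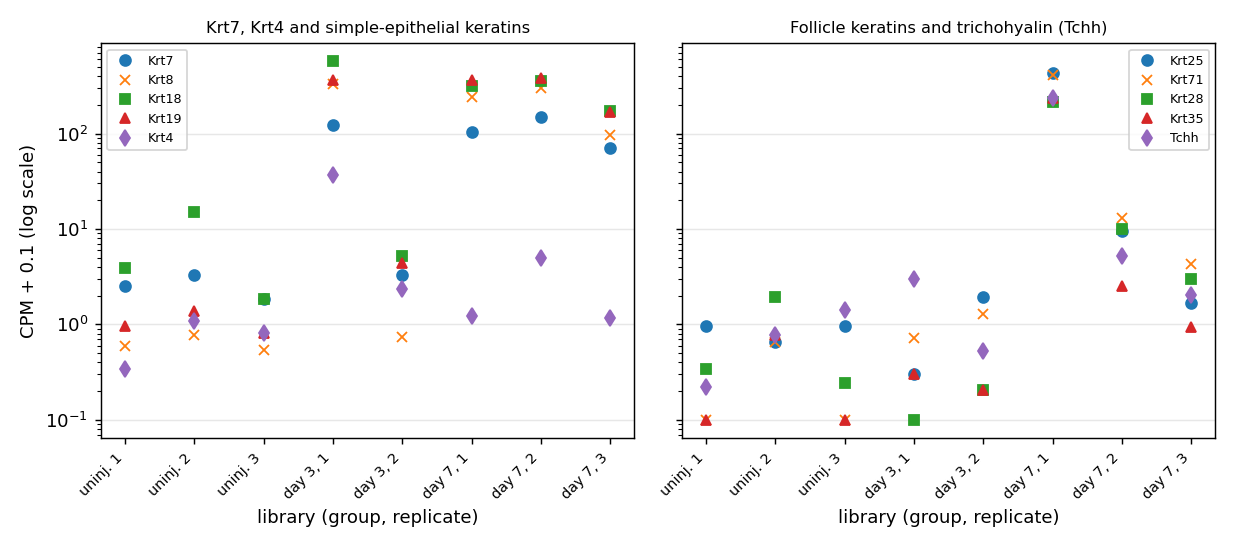
CPM + 0.1 (log axis) per library for Krt7 and Krt4 with the simple-epithelial keratins Krt8, Krt18 and Krt19 (left) and for 4 follicle keratins with Tchh (right). On the left Krt7 lies at 70.3 to 150 CPM in day 3 replicate 1 and the day 7 libraries and at 1.73 to 3.21 elsewhere, and on the right the values of day 7 replicate 1 stand above 200 CPM.

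Krt7 was the 1 member that rose in the main comparison. It was at 2.44, 3.19 and 1.73 CPM in uninjured skin, 124 and 3.21 at day 3 and 103, 150 and 70.3 at day 7. All day 7 libraries and day 3 replicate 1 were above 70 CPM, and day 3 replicate 2 was at the uninjured level. The mean went from 2.45 ± 0.726 CPM (SD, n = 3) in uninjured skin to 107.5 ± 40.0 (SD, n = 3) at day 7, a log2 fold change of 5.41 ± 1.22 (SE; 42.4-fold) with an edgeR adjusted p of 0.0448. The size held across the alternatives (log2 5.11 to 5.67), but the adjusted p ran from 7.58e-06 to 0.156 and lay above 0.05 with upper-quartile scaling (0.0516), with no filter (0.119) and without any single uninjured library or day 7 replicate 1 or 2 (0.0605 to 0.156). The 2 day 3 libraries decided the other contrasts. At day 3 against uninjured the log2 fold change was 0.34 without day 3 replicate 1 and 5.58 (edgeR adjusted p 2.98e-05) without replicate 2. At day 7 against day 3 it was 5.05 (0.00344) without day 3 replicate 1 and -0.20 without replicate 2.

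The simple-epithelial keratins outside the rule moved with Krt7. Krt8 was at 0.488, 0.674 and 0.433 CPM in uninjured skin, 329 and 0.642 at day 3 and 241, 298 and 97.3 at day 7. Krt18 and Krt19, its type I partners, were high in the same 4 libraries, at 171 to 572.5 and 167 to 382 CPM, and at most 14.9 and 4.28 elsewhere. Krt8 and Krt18 did not pass at day 7 against uninjured (edgeR adjusted p 0.0568 and 0.0991). Over the luminal epithelium list of 17 genes, 9 of the 16 tested rose at day 7 by edgeR's test, Krt19 among them (adjusted p 0.0335). None fell, and the median log2 fold change was 4.54, where 5.89% of all genes rose. The list was chosen with earlier results of these data known. Genes near the floor in uninjured skin, such as Krt8, Cldn3, Cldn7 and Csn3, passed the filter through wounded libraries and had little room to fall. Without day 7 replicate 1 none of 15 passed while the median was 5.20, without replicate 2 3 of 16 passed, and without uninjured replicate 1 or 3 1 of 16 did. Without either day 3 library 14 of 16 passed. The summed level of the list was 74.7 to 106 CPM in uninjured skin, 1974 and 90.9 at day 3 and 1687, 1621 and 796 at day 7, and of the milk genes on it Csn3 and Lalba rose while Wap had no count in any library. Csn3, the gene of kappa-casein, had no count in uninjured skin and was at 26.1 and 0.428 CPM at day 3 and 14.8, 21.7 and 32.9 at day 7 (edgeR adjusted p 0.0431). The basal keratins did not follow this split. In day 3 replicate 1, Krt5 was at 109 CPM, below all uninjured libraries, and Krt14 was at 328 CPM, within the uninjured range. The part of luminal cells in the Krt7 result was not tested.

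Krt4, a keratin of moist stratified epithelia such as the oral lining, was high in day 3 replicate 1 alone, at 37.0 CPM against 0.244 to 4.85 in the other 7 libraries. Its log2 fold change at day 3 against uninjured was 4.81 (edgeR adjusted p 0.206), and 1.72 without that library. Krt20, a keratin of gut epithelium and of the touch-sensing Merkel cells, also peaked there at 7.20 CPM. Krt23 was at 19.9, 21.5 and 21.1 CPM in uninjured skin, 12.8 and 47.4 at day 3 and 32.8, 9.61 and 12.8 at day 7, highest, as Krt77 was, in day 3 replicate 2 and then in day 7 replicate 1. Of the remaining 8 other keratins, the highest were Krt42 at 8.87 CPM and Krt24 at 6.52, both in day 3 replicate 2, and Krt222 at 8.60 in day 7 replicate 1.

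Genes that build the attachments of keratin filaments were read from further lists, also chosen with earlier results of these data known. At day 7 against uninjured, 5.89% of all genes tested rose and 1.89% fell. Of 14 desmosome genes tested, 2 rose (Dsg2, edgeR adjusted p 0.0377, and Dsc2, 0.0385) and none fell, with a median log2 fold change of 0.57. Both are desmosomal cadherins known from simple epithelia, whereas Dsp, which anchors keratin filaments, was at 69.2 to 73.8 CPM in uninjured skin and 237, 55.8 and 47.4 at day 7. Trp63, the master factor of basal keratinocytes, was at 41.9 ± 5.02 CPM (SD, n = 3) in uninjured skin and 33.7 ± 21.7 (SD, n = 3) at day 7 (edgeR adjusted p 0.635). Of 20 cornified envelope genes tested, 2 rose, a share near that of all genes (median 0.33): Sprr2d, at 0.144 to 3.37 CPM in uninjured skin and 19.9 to 36.9 at day 7 (log2 3.73, edgeR adjusted p 0.00982), and Sprr2a1 (3.75, 0.0319). Both encode small proline-rich proteins that are cross-linked into the envelope of stressed keratinocytes. Of 9 myoepithelium genes, 4 rose (Acta2, Cnn1, Myh11 and Actg2, which smooth muscle also makes), and neither Krt5 nor Krt14 was among them. Among genes of other tissues, 10 of 10 skeletal muscle genes fell, 6 of 8 endothelial and 2 of 8 macrophage genes rose, and none of 10 adipocyte genes passed. With single uninjured or day 7 libraries left out, 8 to 10 muscle genes fell, 1 to 7 endothelial and 0 to 4 macrophage genes rose, and 6 adipocyte genes fell without day 7 replicate 3. Leaving out uninjured replicate 1, uninjured replicate 3, day 7 replicate 1 or day 7 replicate 2 left 1 endothelial call, and macrophage calls 0 without uninjured replicate 1 or day 7 replicate 1 or 2. Without day 7 replicate 1 no gene of the desmosome, cornified or myoepithelium lists passed, and the medians of the desmosome and cornified lists were -0.21 and -0.20. Without uninjured replicate 1 a single gene of these 3 lists passed, in the cornified list, and the desmosome count was also 0 when uninjured replicate 2, uninjured replicate 3 or day 7 replicate 2 was left out. At day 3 against uninjured no gene of these lists passed, as 0.0% of all genes did.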

How the data were processed

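RNA from GFP-tagged polysomes, recovered with an antibody against GFP and made into libraries from 20 ng of RNA (Takara SMART-Seq mRNA LP), was measured in 8 libraries, per the labels' protocols. The deposited values are whole-number read counts for each gene, not normalised, made by the authors with featureCounts 2.0.8, per the file headers. The submitters' processing notes also name STAR 2.7.10b and the build mm10. No source used here states strandedness or how multiply mapped reads were treated, which leaves keratins with shared sequence or overlapping genes uncertain. Of 53700 identifiers, 52093 were matched to symbols through GENCODE M21 (GRCm38), and the 1607 others held 0.0535% to 0.493% of a library's counts. The starts given in the deposited table mostly differed from that annotation, so its coordinates are not printed. Krt85 and protein sequences are not analysed here, and results of some other genes are not reported here.

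Counts were TMM-normalised and tested in edgeR 4.0.16 (R 4.3.3) with 1 mean per group over all 8 libraries, a robust quasi-likelihood F test, two-sided, on 18656 genes passing the expression filter at a minimum count of 10, with Benjamini-Hochberg adjustment over all of them at 0.05. No block was used. CPM is TMM-normalised, with SD over libraries; standard errors were derived from each log2 fold change and F, and RPKM (CPM per kilobase of the deposited gene length) served only to compare genes. Libraries held 5308959 to 17751689 counts, so low genes are least precise in the shallowest. Shared sequence is the share of a gene's 50-base transcript windows found in any other gene.

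Keratins reaching 10 CPM in any library or passing a test are named with values, others by subgroup, with the highest. Of other lists, named were up to 4 genes with the smallest adjusted p, those chosen later being Adipoq, Csn3, Lalba, Dct, Msx2, Dlx3, Tchh, Hoxc13, Lef1, Flg, Dsp, Trp63 and Wap. Members and lists were chosen with earlier results of these data known. The alternatives were DESeq2 1.42.0, other scalings and filters, only 2 groups, a replicate block, each library left out, and, chosen after seeing the data, a fit without robust estimation and list counts with each library left out. The procedure was tested on simulated data.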

Additional observations from a re-analysis of the deposited data

How the results depend on the processing

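Counts of calls moved with the processing, and the cause was not tested beyond what each alternative itself changes (fewer genes or fewer libraries). At day 7 against uninjured the count of called keratins was 1, and it was 0 with upper-quartile scaling, 9 with no filter (among them hair shaft keratins near the detection floor, without Krt7), 2 at a minimum count of 30 (Krt7 and Krt71), 5 without robust estimation, 5 with DESeq2 (Krt7, Krt28, Krt31, Krt33a and Krt73) and 0 to 8 with single libraries left out. The 8 came without day 7 replicate 3 (Krt7, Krt25, Krt27, Krt28, Krt35, Krt71, Krt73 and Krt83) and the 0 without uninjured replicate 1 or 3. Over all genes the 1450 calls became 3057 with no filter, 2501 with DESeq2 and 312 to 4125 with a library left out (lowest without uninjured replicate 1, highest without day 7 replicate 3).

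At day 3 against uninjured the 0 called keratins became 2 with no filter (Krt4 and Krt20), 2 with DESeq2 (Krt4 and Krt7) and 0 to 2 with a library left out (2 without day 3 replicate 2). The 0 calls over all genes became 1 with upper-quartile scaling, 804 with no filter, 2 without robust estimation, 429 with DESeq2 and 0 to 154 with a library left out. At day 7 against day 3 the 0 called keratins became 3 with no filter (Krt4, Krt24 and Krt75), 2 with DESeq2 (Krt4 and Krt28) and 0 to 1 with a library left out (Krt7 without day 3 replicate 1). The 23 calls over all genes became 468 with no filter, 12 with only the 2 groups, 235 with DESeq2 and 7 to 59 with a library left out.

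The replicate numbers share only a number, since same-numbered libraries correlated at -0.074 to 0.203 in their deviations and not every library correlated best with its own number. With the replicate block the called keratins were 0 at day 7 against uninjured (Krt7 log2 5.47, edgeR adjusted p 0.114), and the calls over all genes were 2183, 15 at day 3 against uninjured and 138 at day 7 against day 3.

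Of 361 log2 values over 23 results, 321 stayed on their side of the threshold in the same direction, 8 lost and 25 gained the call, and 7 changed sign, all with a library left out. At day 7 against uninjured the ranges with a library left out were -0.14 to 2.37 for Krt75, -0.42 to 0.74 for Krt5, -0.96 to 0.31 for Krt15, -0.30 to 1.31 for Krt1, -0.67 to 0.82 for Krt10 and -0.71 to 0.73 for Krt77. The lowest values were without day 7 replicate 1, and the sign of Krt15 changed without uninjured replicate 3. At day 7 against day 3 Krt7 ranged from -0.20 to 5.05. Of 128 summed values of subgroups under other scalings, 127 moved by less than the replicate SD.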

Other observations

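Rows with a keratin name that are not protein-coding were read beside the members. The pseudogene Krt8-ps was at 0, 0 and 0.144 CPM in uninjured skin, 25.7 and 0 at day 3 and 7.93, 22.0 and 8.03 at day 7, high in the same 4 libraries as Krt7 and Krt8. Krt74, annotated here as a transcribed pseudogene, had 9 counts in day 7 replicate 1 and 0 to 2 in each other library.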
